A study of Mus musculus with 2 samples.

Results

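The genes described here encode the nuclear subunits of respiratory complexes II to V, with the mobile electron carrier cytochrome c, in mouse liver. They were taken from the platform's gene names: every probe set with a single annotated symbol that was Sdha, Sdhb, Sdhc, Sdhd, Cyc1 or Cycs, or that began with Uqcr, Atp5, or Cox followed by 4, 5, 6, 7 or 8. This gave 86 probe sets of 47 genes, among 12393 genes with such a probe set on the array. All 47 matched a RefSeq gene by identifier and carried the same symbol there. Of the 47, 4 belong to complex II, 10 to complex III and cytochrome c, 16 to complex IV and 17 to complex V. No value of the arrays entered this choice.

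The study compared livers of male, apolipoprotein E-deficient mice with a C57BL/6J background, which were 2 months old when feeding began. The oleanolic acid group ate a semipurified Western diet with 0.01% oleanolic acid, a plant triterpenoid, a daily dose of 10 mg per kg, for 11 weeks. The control group ate the Western diet without it for 11 weeks. The group came from each array's title and diet label, since the growth text of both samples names oleanolic acid. Each group is 1 array of pooled liver RNA, and the sources used here do not say how many mice a pool held. With 1 array per diet there is no test and no p-value, so every difference below describes these arrays and not the diets. The values are MAS5 signals, linear intensities of each probe set. That there are 2 arrays sets the limit of precision.

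Complex II oxidises succinate and hands electrons to ubiquinone. Complex III passes them on to cytochrome c, complex IV gives them to oxygen, and complex V uses the proton gradient built by the chain to make ATP. Each mitochondrion-rich tissue holds these machines, and several complex IV subunits exist as a form used by liver and most other tissues and another used by heart, skeletal muscle or brown fat. In liver the chain supplies ATP for gluconeogenesis, urea synthesis and lipid metabolism.

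Probe sets counted as measured if either array's signal was at or above that array's median (59.3 in the oleanolic acid array, 61.5 in the control array). Signals below the 25th percentile of their array were raised to it as a floor (10.1 in the oleanolic acid array and 10.7 in the control array). Being measured was met by 74 of the 86 probe sets and 44 of the 47 genes. The 3 genes without a measured probe set were Cox4i2, Cox6a2 and Cox6b2, all tissue-restricted forms. A gene's log2 ratio sets oleanolic acid over control and averages its measured probe sets, and its signal is their geometric mean. The error is the SD between its measured probe sets or, with 1 measured, the pooled SD of genes of like signal. Either one, named probe set SD from here on, reflects probe and hybridization error and says nothing of differences between mice.

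The liver label held on both arrays. Of 10 hepatocyte markers, 9 had a probe set and all 9 were measured, with summed signals of 78841 in the oleanolic acid array and 77910 in the control array. Albumin (Alb) had a signal of 8950 in the oleanolic acid array and 8540 in the control array. Of the 9, 7 had log2 ratios above 0 and 2 below. These were Cps1 at -0.086 and Tat at -0.70, with 2725 in the oleanolic acid array and 4440 in the control array. With quantile normalization or centring by signal, 3 were above 0 and 6 below. In these pools, fewer cells of a type and less RNA per cell cannot be told apart.

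Subunit genes of the respiratory chain differed little between the arrays. Of 44 measured genes, 43 had a log2 ratio within 0.5 of 0. Within 0.2 lay 40, or 90.9% against 68.2% of all measured genes. The median was 0.077 and the middle of the distribution was narrow, from 0.016 at the lower quartile to 0.093 at the upper. Past 0.5 lay 1 gene, Cox8b, which was lower in the oleanolic acid array. Over all 7137 measured genes the median was 0.0012, and 5.87% were past 0.5 in either direction and 3.24% past it on the lower side. The single gene is 2.27% of the 44. It was also the one subunit gene past 1, where 1.02% of all genes lay, and past 1.5, the size named in the submitters' design text, where 0.392% of all genes lay in either direction and 0.28% on the lower side.

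The small ratios lay more often above 0 than below. The oleanolic acid array had the higher signal for 34 of 44 genes and the lower signal for 10, against 50.2% higher among all measured genes. The subunit genes are bright, however: 40 of the 44 lay in the highest of 4 signal bands, which begins at a signal of 594. These 40 had a median of 0.078, and 34 of them were above 0. Of all genes of the band, 58.2% were higher in the oleanolic acid array, and its 1713 genes outside complexes I to V had a median of 0.025. Within 0.2 of 0 lay 38 of the 40, or 95%, against 81.3% of the 1713. Past 0.5 lay 0 of the 40, and of the 1713, 31 on the higher side and 18 on the lower. With quantile normalization or with centring by signal, 29 of 44 stayed above 0, with medians of 0.034 for the subunit genes under each. Above 0 were then 52.2% and 52.0% of all measured genes, and 53.8% and 52.9% of the band's genes outside complexes I to V, in the same order. The genes of the band outside complexes I to V had medians of 0.0097 with quantile normalization and 0.0082 with centring by signal.

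**Figure D1:**
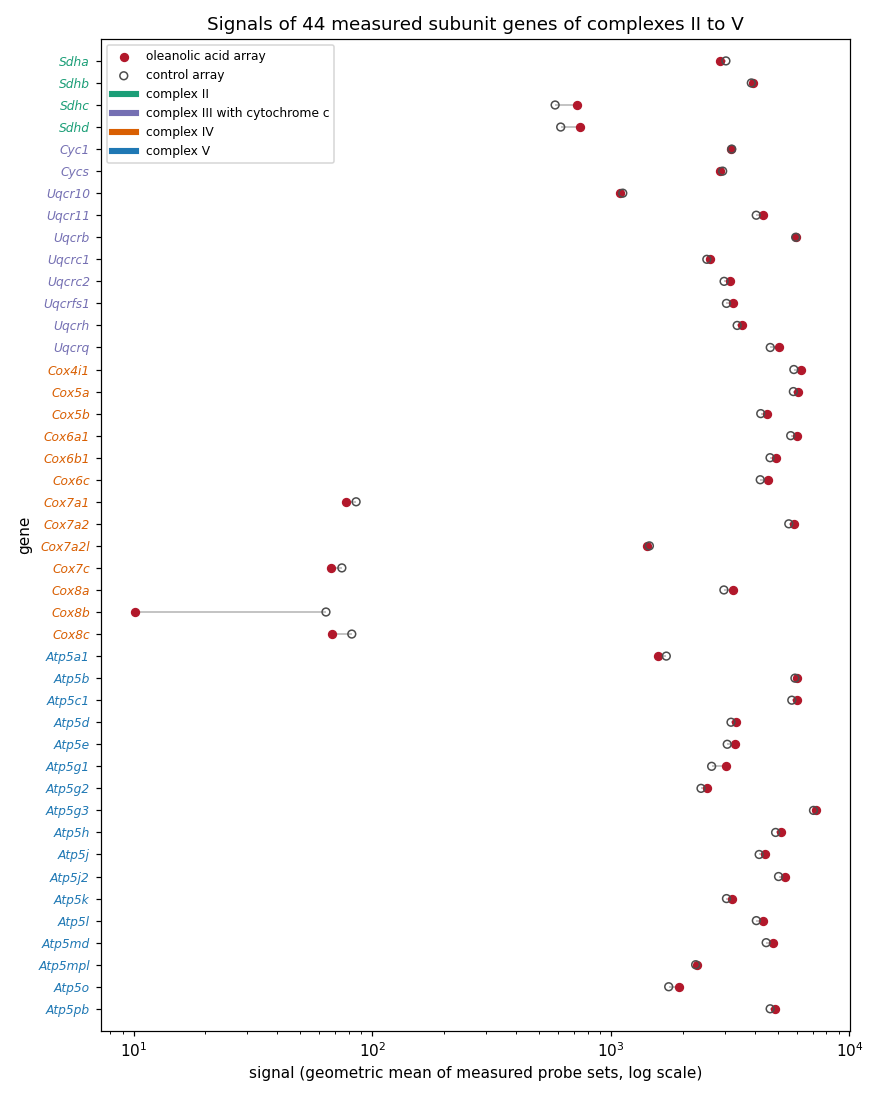
Signal of each of the 44 measured subunit genes (log axis), with filled points for the oleanolic acid array and open points for the control array, 1 pool each, and gene names coloured by complex. The points of a gene lie close together except for Cox8b, whose oleanolic acid signal is drawn at the floor of 10.1. Positions of different genes on the axis cannot be compared, because probe sets differ in brightness.

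Complex II has a catalytic part, made by Sdha and Sdhb, and a membrane anchor, made by Sdhc and Sdhd. The genes of the catalytic part were near 0. Sdha, the flavoprotein that oxidises succinate, had a signal of 2876 in the oleanolic acid array and 3035 in the control array, giving a log2 ratio of -0.077 ± 0.056 (SD over 2 probe sets). Sdhb, the iron-sulfur subunit, had signals of 3926 and 3878 in the oleanolic acid and control arrays, giving a log2 ratio of 0.018 (probe set SD 0.13), and lay just below 0 with quantile normalization (-0.015) and with centring by signal (-0.022).

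The anchor genes had the highest log2 ratios of the 44 genes, each through a dim probe set. Sdhc had signals of 1362 in the oleanolic acid array and 1275 in the control array on its brighter probe set, and 378 in the oleanolic acid array and 268 in the control array on the dimmer. Its mean log2 ratio was 0.30 ± 0.29 (SD over 2 probe sets). Both probe sets were higher in the oleanolic acid array, by unequal amounts. Sdhd had signals of 2219 in the oleanolic acid array and 2048 in the control array on one probe set, and of 249.9 and 186 in those arrays on the other, a mean log2 ratio of 0.27 ± 0.22 (SD over 2 probe sets). The dim probe set of each gene is of the _x_at kind, which can bind other transcripts. On the brightest probe set alone Sdhc was at 0.096 and Sdhd at 0.12, and the median of the complex was 0.057 in place of 0.15.

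In complex III, all 10 genes including those of cytochrome c were within 0.2 of 0, with a median of 0.055. The highest was Uqcrq, a small accessory subunit, at 0.13 (probe set SD 0.13) with signals of 5089 in the oleanolic acid array and 4655 in the control array. Uqcr11, another of these, followed at 0.092 (probe set SD 0.13), with 4333 in the oleanolic acid array and 4067 in the control array. Uqcrfs1, the Rieske iron-sulfur protein, was at 0.086, the core proteins Uqcrc1 and Uqcrc2 at 0.039 and 0.076, the hinge protein Uqcrh at 0.070 and Uqcrb at 0.0096. None of these differed by more than the probe set SD. Uqcrb turned to -0.031 with quantile normalization and -0.043 with centring by signal, and Uqcrc2 to -0.0068 on its brightest probe set.

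Cycs, which encodes the cytochrome c of somatic cells, had a signal of 2859 in the oleanolic acid array and 2941 in the control array. All 3 of its probe sets were lower in the oleanolic acid array, at log2 ratios between -0.060 and -0.019, for a mean of -0.041 ± 0.021 (SD over 3 probe sets). Cyc1, the cytochrome c1 of complex III, was at -0.011, well within its probe set SD of 0.13, on signals of 3185 in the oleanolic acid array and 3210 in the control array. Uqcr10, the lowest of the group at -0.045 ± 0.11 (SD over 3 probe sets), had probe sets of both signs, and its brightest was at 0.074.

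Complex IV is where isoforms divide by tissue. Of the subunit forms used in liver, 8 had log2 ratios above 0, namely Cox4i1 (0.095), Cox5a (0.059), Cox5b (0.082), Cox6a1 (0.089), Cox6b1 (0.079), Cox6c (0.11), Cox7a2 (0.074) and Cox8a (0.13), and Cox7c was below 0. The 8 stayed above 0 with quantile normalization, centring by signal and centring on the median, whereas once unmeasured probe sets counted too, Cox5b was at -0.027 and Cox8a at -0.32. They encode structural subunits around the catalytic core. Cox8a had signals of 3258 and 3243 on its measured probe sets in the oleanolic acid array, against 2994 and 2959 in the control array, giving a log2 ratio of 0.13 ± 0.0075 (SD over 2 probe sets). Cox6c had a signal of 4575 in the oleanolic acid array and 4227 in the control array, giving a log2 ratio of 0.11 ± 0.015 (SD over 2 probe sets). Probe sets of one gene agreed closely here, but a difference of this size between single pools has no replicate to be set against. With quantile normalization Cox8a was at 0.096 and Cox6c at 0.062, moves larger than these SDs.

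Other members of complex IV lay below 0. Cox7a2l, a relative of Cox7a2, had a signal of 1411 in the oleanolic acid array and 1450 in the control array, at -0.040 ± 0.062 (SD over 3 probe sets). Cox7c, a small structural subunit also used in liver, had 1 measured probe set with a dim signal of 67.2 in the oleanolic acid array and 74.6 in the control array, at -0.15 (probe set SD 0.27), and reached 0.18 once its dimmer probe set counted too. These ratios were smaller than their probe set SD.

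On deposited signals the 3 muscle and fat isoforms differed, through Cox8b alone. Cox8b, the form of subunit 8 found in heart, skeletal muscle and brown fat, had a deposited signal of 9.5 in the oleanolic acid array and 64.0 in the control array. The first lies under the floor, so the gene was at least 6.34-fold lower in the oleanolic acid array (log2 ratio -2.66 at the floor). Its control signal only just passed the array median of 61.5, so Cox8b entered the measured genes through the array in which it was high. With the floor at the array median its log2 ratio was -0.11, and with both signals required to reach the median it was not measured, which left 0 of 43 genes past 0.5.

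Cox7a1, the heart, muscle and brown fat partner of Cox7a2, had a signal of 77.9 in the oleanolic acid array and 85.6 in the control array, giving a log2 ratio of -0.14 (probe set SD 0.27). Cox6a2, the heart and skeletal muscle partner of Cox6a1, was dim on both arrays, with deposited signals of 28.1 in the oleanolic acid array and 27.0 in the control array. Thus 1 of these 3 isoforms, Cox8b, was far lower in the oleanolic acid array, and the others were close to equal on both. The contrast rests on Cox8b, whose direction was fixed by how it entered. With the floor at the array median, Cox8b was at -0.11 and Cox7a1 at -0.14, and Cox6a2 had no measured probe set. Their liver counterparts, given above, were at 0.13 (Cox8a), 0.074 (Cox7a2) and 0.089 (Cox6a1).

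Isoforms of other tissues were dim. Cox8c, the testis form of subunit 8, had 67.8 in the oleanolic acid array and 82.1 in the control array, giving a log2 ratio of -0.28 (probe set SD 0.27). Cox6b2, a testis form, had 12.1 in the oleanolic acid array and 21.9 in the control array. Cox4i2, a lung form that is induced by low oxygen in mammalian cells, had 2.0 in the oleanolic acid array and 1.0 in the control array, both under the floor, so no fold is given. No detection calls were used here, and it is not known which of these signals exceed background.

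Fat markers were mixed. Of 13 brown fat markers, 10 had a probe set, Cox8b among them. Of the other 9, 2 were under the floor on both arrays, and of the 7 left, 6 had a lower mean deposited signal in the oleanolic acid array, against 51.6% of all 10135 genes above the floor on either array. Ucp1, the uncoupling protein that defines brown fat, had a signal of 1.0 in the oleanolic acid array and 76.4 in the control array, at least 7.56-fold lower. Like Cox8b it was measured through the control array, in which it was high: its log2 ratio was -0.37 with the floor at the array median, and it was not measured with both signals required to reach the median. It was also above the floor on that array alone, so its direction among the 6 was fixed by how it entered. Cidea, a lipid droplet protein of brown fat, had 15.0 in the oleanolic acid array and 53.9 in the control array. Both signals lie under the array medians, so Cidea was not measured. The genes under the floor on both arrays were Zic1, a transcription factor, and Kcnk3, a potassium channel. Dio2, a deiodinase, had mean signals under the floor on both arrays (7.4 in the oleanolic acid array and 10.2 in the control array) but a probe set above it. The exception among the 7 was Elovl3, a fatty acid elongase that liver also expresses, with 3126 in the oleanolic acid array and 859 in the control array (log2 ratio 1.86). Because of Elovl3, the summed signal of the list was 3570 in the oleanolic acid array and 1623 in the control array. Cox7a1, itself on the list, did not follow Ucp1 and Cox8b in size.

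General adipocyte markers were mixed too. Of 9 listed, 7 had a probe set and 2 of these were under the floor on both arrays, Lep (leptin) and Retn (resistin). Of the 5 left, 4 were lower in the oleanolic acid array, against the same 51.6% of all genes. Adipoq, among the 4, was above the floor on the control array alone, so its direction was fixed by how it entered. The list had summed signals of 316 in the oleanolic acid array and 420 in the control array. Adipoq, the adiponectin gene, had 9.2 in the oleanolic acid array and 47.7 in the control array. Both signals lie under the array medians, so Adipoq was not measured. Fabp4, a fatty acid binding protein of adipocytes and macrophages, was at a log2 ratio of -0.87 ± 0.049 (SD over 2 probe sets). Pparg, the nuclear receptor that drives adipocyte formation, was higher in the oleanolic acid array, with 129 there and 94.1 in the control array (log2 ratio 0.46, probe set SD 0.27).

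Skeletal muscle and heart gave little signal on either array. Of 15 skeletal muscle markers, 1 was measured (Eno3, an enolase, at -0.17), and the summed signal was 205 in the oleanolic acid array and 197 in the control array. For 8 of the 15, every probe set was under the floor on both arrays, among them the myosin genes Myh2 and Myh4. By mean deposited signal, 7 of the 15 were higher in the oleanolic acid array and 7 lower, those under the floor included. The marker Acta1 was not measured, with 26.3 in the oleanolic acid array and 6.1, under the floor, in the control array. None of 7 heart markers was measured, with summed signals of 42.5 in the oleanolic acid array and 67.3 in the control array. All 7 exocrine pancreas markers with a probe set were lower in the oleanolic acid array, against 49.7% of all measured genes. Their log2 ratios ran from -2.04 for Prss2 (a trypsin gene) to -1.42 for Cel (carboxyl ester lipase). The summed signals were 211 in the oleanolic acid array and 729.9 in the control array. Prss2, Cpb1, Ctrb1, Cela3b, Clps and Cela2a were past 1.5 on the lower side, where 0.28% of all measured genes lay. All 7 were measured through the control array alone, so the direction of their ratios was fixed by how they entered. With both signals required to reach the median none was measured. With the floor at the array median, the median of the list was -0.85 in place of -1.76, with Cel at -0.17. Ucp1, Cidea, Adipoq and the 7 pancreas markers were lower in the oleanolic acid array, as was Cox8b, whereas Elovl3, Pparg and Acta1 were higher. The part of the tissues of these markers in the Cox8b value was not tested.

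**Figure D2:**
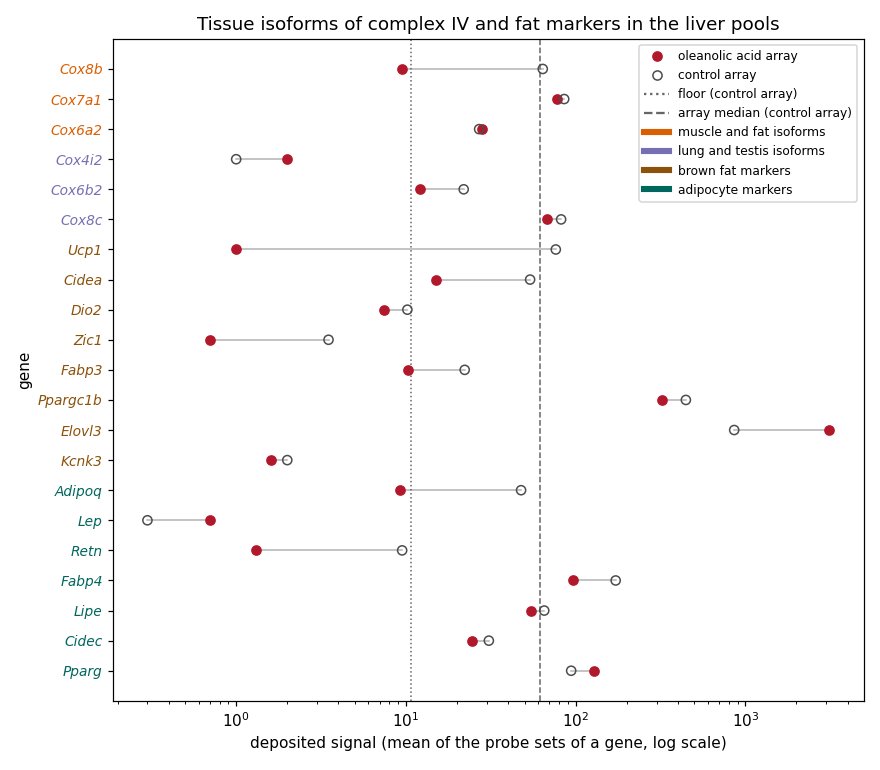
Deposited signals (log axis) of tissue isoforms of complex IV and of fat markers, with filled points for the oleanolic acid array and open points for the control array, and lines at the floor of 10.7 and the median of 61.5 of the control array. Cox8b, Ucp1, Cidea and Adipoq are far lower in the oleanolic acid array, whereas Cox7a1 and Cox6a2 are nearly equal on both. Cox8b and Ucp1 were measured through the control array alone, and Cidea, Adipoq and Cox6a2 were not measured.

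Promoter sequences are shown for the isoforms that the comparison turns on, to set a restricted subunit gene beside widely used ones. Each window runs from 250 bases before to 50 bases after the annotated gene start, 5′ to 3′ on the gene's strand, from RefSeq on GRCm38.p6. Cox8b is at chr7:140900397-140900696 on the minus strand, Cox8a at chr19:7217567-7217866 on the minus strand, Cox7a1 at chr7:30183921-30184220 on the plus strand and Cox6a1 at chr5:115348909-115349208 on the minus strand. Capitals mark matches, on either strand, to the letters GCGC, any base, then TGCGC (the site of NRF1, a regulator of respiratory genes), CCGGAAG (the site of GABPA, also called NRF-2 in this setting), TATAAA (the letters of a TATA box) and CAGCTG (an E-box of the kind bound by myogenic factors).
Cox8b: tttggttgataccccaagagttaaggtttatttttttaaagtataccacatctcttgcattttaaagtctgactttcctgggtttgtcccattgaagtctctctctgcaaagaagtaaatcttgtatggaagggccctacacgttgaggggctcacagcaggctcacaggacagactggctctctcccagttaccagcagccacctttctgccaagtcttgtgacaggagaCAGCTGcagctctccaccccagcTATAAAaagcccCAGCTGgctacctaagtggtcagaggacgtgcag
Cox8a: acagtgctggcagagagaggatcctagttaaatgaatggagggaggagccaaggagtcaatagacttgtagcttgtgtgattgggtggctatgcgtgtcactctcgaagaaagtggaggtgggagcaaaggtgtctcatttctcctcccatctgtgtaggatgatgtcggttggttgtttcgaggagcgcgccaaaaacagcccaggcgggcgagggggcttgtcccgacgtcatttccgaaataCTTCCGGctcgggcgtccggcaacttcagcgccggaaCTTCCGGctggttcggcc
Cox7a1: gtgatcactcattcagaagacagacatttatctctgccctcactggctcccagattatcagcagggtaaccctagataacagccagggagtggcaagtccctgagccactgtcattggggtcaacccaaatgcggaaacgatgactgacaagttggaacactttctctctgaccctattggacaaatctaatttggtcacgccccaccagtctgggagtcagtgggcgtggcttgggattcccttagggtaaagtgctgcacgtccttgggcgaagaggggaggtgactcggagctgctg
Cox6a1: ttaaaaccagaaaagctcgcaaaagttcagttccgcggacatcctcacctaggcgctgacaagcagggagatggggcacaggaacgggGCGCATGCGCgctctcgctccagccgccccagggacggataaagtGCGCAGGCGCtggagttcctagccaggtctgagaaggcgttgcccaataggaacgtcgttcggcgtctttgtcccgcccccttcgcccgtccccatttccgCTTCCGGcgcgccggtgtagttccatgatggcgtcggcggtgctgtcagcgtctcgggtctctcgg
The Cox8b window held TATAAA once and CAGCTG at 2 places. Counted from the annotated start, TATAAA began at position 4, downstream of it, whereas a TATA box lies upstream, and CAGCTG at -19 and 16. Cox8a held CCGGAAG at 2 places, and Cox6a1 held the NRF1 letters at 2 places and CCGGAAG at 1. The Cox7a1 window held no match to these letters. No match overlapped one of another motif. The motifs were chosen for what is known of respiratory and muscle genes, with these windows in view.

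Promoter windows were given for 35 of the 47 genes, 38 windows in all. NRF1's letters were found in 10 of the 38, or 26.3%, against 4.60% of all 32851 windows, and GABPA's in 13, or 34.2%, against 8.86%. The TATA letters were in 3 of the 38 windows, those of Atp5l, Atp5md and Cox8b, or 7.89% against 13.6% of all windows. CAGCTG was in 2, those of Atp5b and Cox8b, or 5.26% against 16.3%. These are matches of letters, and the arrays measured no binding. The windows of these genes had a median G and C content of 56.8%, against 52.7% over all windows, which bears on how often such letters occur.

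Complex V, the ATP synthase, had values close to each other, with quartiles of 0.071 and 0.096. The SD between its genes was 0.063, near the 0.060 of complex III with cytochrome c. Of its 17 genes, all were measured and all lay within 0.2 of 0, with a median of 0.078. Above 0 were 16, or 94.1% against 50.2% of all measured genes. All 17 lay in the highest signal band, where 57.1% of the genes outside complexes I to V were above 0. With quantile normalization or centring by signal, 13 of 17 stayed above 0, against 52.2% and 52.0% of all measured genes in that order. For the band's genes outside complexes I to V, these shares were 53.8% and 52.9%. Atp5b and Atp5g3 then lay below 0 under both, with -0.043 and -0.025 by quantile normalization, and -0.023 for each by centring on signal. Atp5mpl was at -0.0024 with centring by signal.

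The catalytic head holds the products of Atp5a1 and Atp5b, around a shaft made by Atp5c1, Atp5d and Atp5e. Atp5a1 was the only member of the complex below 0 on deposited values, at -0.11 ± 0.20 (SD over 3 probe sets). Its brighter probe sets had 4014 and 3874 in the oleanolic acid array, against 4026 and 3836 in the control array, and were nearly equal. The dimmest had 254 in the oleanolic acid array and 322 in the control array and carried the difference. Atp5b had 6031 in the oleanolic acid array and 5908 in the control array, giving a log2 ratio of 0.030 (probe set SD 0.13). For the shaft, Atp5c1 was at 0.078, Atp5d at 0.071 and Atp5e at 0.11.

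Subunit c, which forms the rotating ring in the membrane, is encoded by 3 genes whose mature proteins are the same. Atp5g1 had a signal of 3031 in the oleanolic acid array and 2644 in the control array, giving a log2 ratio of 0.20 (probe set SD 0.13), the highest of complex V. Atp5g2 had 2536 in the oleanolic acid array and 2387 in the control array, at 0.087. Atp5g3 had 7240 in the oleanolic acid array and 7066 in the control array, at 0.035. The ratio was largest for Atp5g1, but the spread among the 3 genes is close to the probe set SD.

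The stalk that holds the head in place and the small membrane subunits had similar values. Atp5o, the protein at the top of the stalk that confers oligomycin sensitivity, had 1928 in the oleanolic acid array and 1748 in the control array, giving a log2 ratio of 0.14 ± 0.023 (SD over 2 probe sets), next after Atp5g1. The stalk genes Atp5pb (0.073), Atp5h (0.081) and Atp5j (0.078) were nearly equal to each other. Among the membrane subunits, Atp5j2 was at 0.093, Atp5k at 0.077, Atp5l at 0.096 and Atp5md, which helps to join ATP synthases into dimers, at 0.096. Atp5mpl was at 0.020, with 2298 in the oleanolic acid array and 2266 in the control array.

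**Figure D3:**
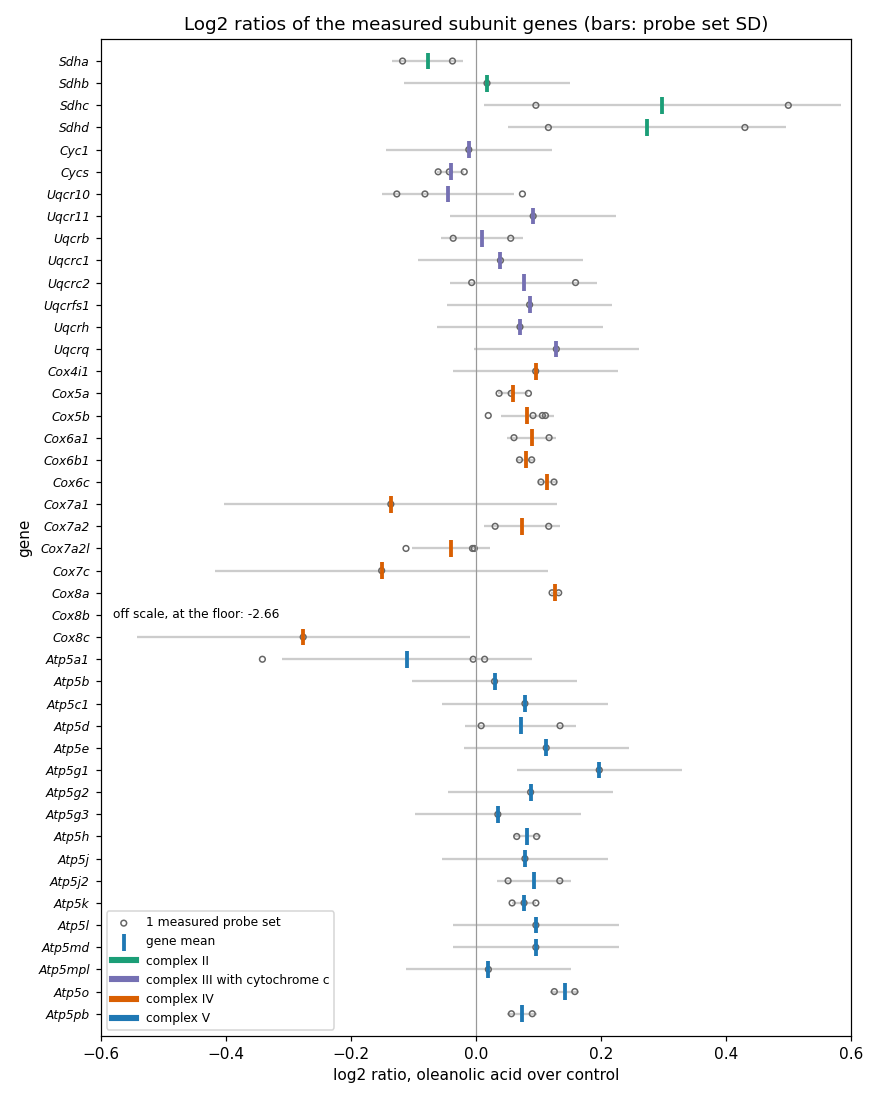
Log2 ratio, oleanolic acid over control, of each measured probe set (open points) and the mean of each of the 44 subunit genes (coloured ticks by complex), with grey bars for the probe set SD. Most means lie between 0 and 0.13, Sdhc and Sdhd reach 0.30 and 0.27 with wide bars, and Cox8b is off the scale at -2.66.

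Repeat probe sets show how closely probe sets of a gene agreed on the same 2 arrays, and not errors that they share. Of the 44 genes, 22 had 2 or more measured probe sets, with a pooled SD of the log2 ratio of 0.098 between them, and for 4 of the 22 these probe sets lay on both sides of 0. Of the 74 measured probe sets, 55 were above 0, 19 below, and 69 within 0.2. A log2 ratio larger in size than its probe set SD was found for 19 of 44 genes. The same count was not made over all measured genes, so it does not show whether the subunit genes stand out. Subunit genes of the chain have many processed pseudogenes, and 23 of the 74 probe sets are of the _x_at or _s_at kind, which can bind several transcripts. Without that kind, 30 of 39 genes were above 0. Of the 12 probe sets that were not measured, 9 belong to genes that have a measured one. Such dim probe sets moved the value of a bright gene when they were counted: Cox8a was then at -0.32, through a probe set with 11.4 in the oleanolic acid array and 26.2 in the control array, Atp5g2 was at -0.36 and Atp5c1 at -0.19, while Uqcrq was at 0.37.

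Complex I, the other entry point of the chain, gave similar values. Above 0 were 34 of 44 genes of complexes II to V, with a median of 0.077, and 28 of 34 of complex I, with a median of 0.066. With quantile normalization these were 29 of 44 and 21 of 34, and with centring by signal 29 of 44 and 20 of 34. Of all measured genes, 50.2% were above 0, or 52.2% with quantile normalization and 52.0% with centring by signal. Among genes of the highest signal band outside complexes I to V, these shares were 57.1%, 53.8% and 52.9%. The highest of complex I were Ndufb1, an accessory subunit, with dim signals of 90.6 in the oleanolic acid array and 31.0 in the control array (log2 ratio 1.55), and the iron-sulfur subunit Ndufs8 at 0.20. The lowest were Ndufs1 at -0.12 and Ndufs4 at -0.083. With Cox8b and Ndufb1, each set has 1 gene past 1.5, both dim and in opposite directions. Ndufb1 was measured through the oleanolic acid array, in which it was high: its log2 ratio was 0.56 with the floor at the array median, and with both signals required to reach the median it was not measured and Ndufs8 was the highest of 33 genes.

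**Figure D4:**
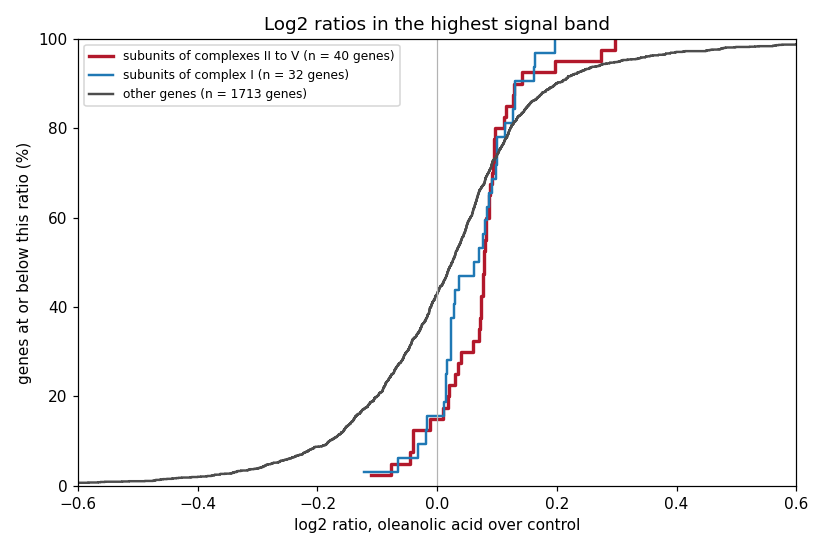
Cumulative share of genes by log2 ratio, oleanolic acid over control, among genes of the highest signal band: 40 subunits of complexes II to V, 32 subunits of complex I and 1713 other genes. The curves of the respiratory subunits are steeper than that of other genes, and their medians lie right of 0. Genes past the axis limits are not drawn.

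Assembly factors build the complexes without staying in them. Of 24 measured, 12 were above 0 and 12 below, or 50% above against 50.2% of all measured genes. With quantile normalization or centring by signal 15 were above and 9 below, against 52.2% and 52.0% of all measured genes above 0. The median was 0.0047, and 1 factor was past 0.5. This was Sco2, a copper chaperone that loads complex IV, with 741 in the oleanolic acid array and 330.3 in the control array, giving a log2 ratio of 1.17 (probe set SD 0.17) from 1 probe set of the _s_at kind, which can bind several transcripts. Without that kind and the _x_at kind, 22 factors were measured, with Cox15 highest at 0.25 and none past 0.5. Uqcc3, an assembly factor of complex III, followed at 0.24. The lowest were Coa6, another factor of copper delivery to complex IV, at -0.22, and Lrpprc, which stabilises mitochondrial mRNAs, at -0.22. Past 1 on the higher side lay 0.392% of all measured genes.

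Of 14 measured regulators of respiratory genes, 5 were above 0 and 9 below, or 64.3% below against 49.7% of all measured genes, and with quantile normalization or centring by signal 6 were above 0 and 8 below. They had a median of -0.054, and 0 of 14 were past 0.5. The coactivator genes were lowest, Ppargc1b at -0.47 (probe set SD 0.17) with 321 in the oleanolic acid array and 446 in the control array, and Ppargc1a at -0.46 ± 0.15 (SD over 5 probe sets) with 89.98 and 124 in those arrays. They encode proteins that boost the transcription of respiratory genes. Esrra, a nuclear receptor that works with them, was at -0.33 (probe set SD 0.25). Tfam, the factor that packages and transcribes mitochondrial DNA, was highest at 0.20, followed by the corepressor gene Nrip1 at 0.13. The lower signals of the coactivators stood beside subunit genes with a median of 0.077.

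The genes that use or bypass the proton gradient were near 0 except for Ucp1. Of 8 measured, 3 were above 0, or 37.5% against 50.2% of all measured genes, with a median of -0.025. Ucp1 was measured through the control array alone, so its direction was fixed by how it entered. With both signals required to reach the median Ucp1 was not measured. Of the 7 genes then measured, 3 were above 0 and 4 below, and Vdac1 was the lowest at -0.086. Slc25a5, an ADP and ATP carrier, was at 0.060 ± 0.080 (SD over 8 probe sets), and the phosphate carrier Slc25a3 at 0.0060. The outer membrane channel genes Vdac3 and Vdac1 were at 0.024 and -0.086. Atpif1, the inhibitor of ATP synthase, had 396.7 in the oleanolic acid array and 397.9 in the control array.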

How the data were processed

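Liver RNA of each diet was pooled and hybridized to 1 Affymetrix array as biotinylated cRNA, per the labels' protocols. The values that the authors deposited are intensities on a linear scale, and MAS5 is named for them, without a version, in the submitters' processing notes. They were used without further scaling. Of 22690 probe sets, 64 Affymetrix control probe sets were left out of percentiles. Probe sets with 1 gene symbol in the platform annotation numbered 20380, those with several 691 and those with none 1555. Only the first kind was used.

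Signals were floored at the 25th percentile of each array, converted to log2 and averaged per gene over measured probe sets (Python 3.11.15, numpy 2.4.6, pandas 2.3.3). Genes with 2 or more measured probe sets numbered 2427, and gave pooled SDs of 0.27, 0.25, 0.17 and 0.13 in 4 bands of rising signal. The scripts were tested on simulated data. Sizes of 0.5, 1 and 1.5 on the log2 scale were counted. All subunit genes were named, with the 2 highest and 2 lowest of each other pathway list and cell type markers past 1, and a few more markers chosen after their values were seen. The genes and lists were chosen with earlier results of these data known. Alternatives covered the floor, the measured rule, the brightest probe set, the probe set kind, quantile normalization, centring by signal (lowess, fraction 0.3, statsmodels 0.14.6) and centring on the median. The count of genes above 0 was followed through them after the data were seen. Motifs were counted by exact letters on both strands.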

Additional observations from a re-analysis of the deposited data

How the results depend on the processing

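No replicate exists, so none could be left out. No paired analysis was possible because each diet has 1 array. The medians over all subunit genes and over each complex stayed above 0 in all 9 alternatives, but several moved by over 1.5 times. The overall median was 0.034 with quantile normalization and 0.034 with centring by signal, in place of 0.077. Complex III was then at 0.032 and 0.023, complex IV at 0.021 and 0.022, and complex V at 0.043 and 0.037 in the same order. Complex IV was at 0.015 with all probe sets counted, and complex II at 0.057 on the brightest probe set and at 0.057 without the _x_at and _s_at kinds. The count of genes above 0 ran from 29 to 34. The counts past 0.5, 1 and 1.5, which are 1 each through Cox8b, were 0 with the floor at the array median and 0 with both signals required to reach it, and the count past 0.5 was 2 with all probe sets counted as measured, when Cox6b2 entered. Cox8b was at -0.11 with the floor at the array median, because the floor replaced its oleanolic acid signal, and otherwise between -2.75 and -2.55 where it was measured. Cox6a2 had a value only with all probe sets counted, 0.058, which its deposited signals give. Of 42 other genes, 15 moved by their probe set SD or more under some alternative, 10 of them with quantile normalization and 10 with centring by signal. Without detection calls, dim signals cannot be told from background.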
